A study of Mus musculus with 6 samples.

Results

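The 10 genes described here mark the resident macrophages of the liver, the Kupffer cells, and were followed in single-cell RNA sequencing of livers from 3 wild-type and 3 SIRT7-/- mice aged 5 to 6 months. They were taken by name from a table of 16623 genes and are Clec4f, Timd4, Cd5l, Vsig4, Marco, Cd207, Vcam1, Folr2, Id3 and Nr1h3. SIRT7 is a histone deacetylase, and mice that lack it were used in the study as a model of spontaneous fatty liver disease on a chow diet. The labels name no treatment in either genotype, and no strain, allele, promoter or cell-type restriction for the knockout. Collagenase-dissociated hepatocytes and non-parenchymal cells of each liver were mixed at a set ratio and run on the 10x Genomics Chromium 3′ platform, so the share of a cell type in a library reflects that mixing as well as the liver.

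Kupffer cells line the sinusoids, where they take up particles, bacteria and aged blood cells from the portal blood. They are seeded before birth and largely maintain themselves, and monocytes that enter the liver can take on the same identity. Signals from sinusoidal endothelial cells, stellate cells and hepatocytes (Notch ligands, BMPs and TGF-beta) and transcription factors such as LXRα, encoded by Nr1h3, and ID3 are known to set that identity.

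The 10 genes are spread over the genome. Clec4f, which encodes a C-type lectin that in the liver is restricted to Kupffer cells, and Cd207, which encodes langerin, another C-type lectin, are neighbours on the minus strand of chromosome 6, with 15.0 kb between them. In GRCm38 with the GENCODE vM21 annotation, Clec4f lies at chr6:83644542-83656187 and Cd207 at chr6:83671215-83677857. Vcam1 lies at chr3:116109949-116129688 on the minus strand and Timd4 at chr11:46810800-46844332 on the plus strand. All 10 are annotated as protein-coding genes. The promoters of the neighbouring pair are shown because, as described further on, Cd207 differed between the genotypes and Clec4f stands beside it as the gene by which Kupffer cells are usually recognized. Both are RefSeq sequences of GRCm38.p6, from 250 bases before to 50 bases after the transcription start, written 5′ to 3′ on the minus strand, with capitals marking GAGGAA, the PU box of the macrophage factor PU.1, on either strand.
Cd207, chr6:83677808-83678107: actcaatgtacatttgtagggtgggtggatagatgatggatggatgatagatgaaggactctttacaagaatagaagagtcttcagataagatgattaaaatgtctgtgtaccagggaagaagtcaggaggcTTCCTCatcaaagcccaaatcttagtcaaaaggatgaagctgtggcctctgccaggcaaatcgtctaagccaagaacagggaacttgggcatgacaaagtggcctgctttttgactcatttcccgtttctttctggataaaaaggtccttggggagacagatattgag
Clec4f, chr6:83656067-83656366: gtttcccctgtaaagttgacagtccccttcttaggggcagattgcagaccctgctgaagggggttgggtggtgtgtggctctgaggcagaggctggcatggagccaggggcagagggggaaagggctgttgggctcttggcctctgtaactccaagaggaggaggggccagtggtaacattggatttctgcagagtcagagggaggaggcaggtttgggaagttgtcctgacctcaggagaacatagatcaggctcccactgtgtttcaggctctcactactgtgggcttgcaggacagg
The Cd207 window held 1 match, on the strand opposite to the gene, and the Clec4f window held none, which says only that these letters are not in that window. Of the 9 genes with a promoter in the table (Vcam1 has none there), 6 had a match in at least 1 of their windows. By window, 6 of their 11 windows held a match, compared with 28.3% of all 32851 promoters in the table.

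Values are CP10K, unique molecular identifiers (UMIs) per 10000 of the cell, averaged over the cells of a mouse. A cell was counted as a macrophage when it held at least 1 UMI of C1qa, a complement gene of tissue macrophages, and at least 1 of Csf1r, the receptor for macrophage colony-stimulating factor, or of Clec4f. This gate took 3723 of 11610 cells. The gated cells numbered 55, 44 and 246 in wild-type mice 1, 2 and 3 compared with 2652, 638 and 88 in SIRT7-/- mice 1, 2 and 3. Their share of all cells was 4.42%, 4.72% and 22.5% in wild-type mice compared with 47.3%, 29.3% and 15.9% in the SIRT7-/- mice. The genotypes overlapped, with 10.5% ± 10.3 against 30.8% ± 15.7 (SD, n = 3), and an exact two-sided permutation test gave p = 0.2, where the smallest value that 3 mice against 3 can give is 0.1. The cells were thus chosen by their C1qa, Csf1r and Clec4f UMIs, so the level of Clec4f among them is a description.

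The gate was set beside clusters built without it and named from marker lists. The macrophage list held C1qa, Csf1r, Clec4f, Cd5l and Vsig4 among others, so the match with the gate is partly built in. Of the gated cells, 3053 fell in clusters named macrophage-like, 463 in unnamed clusters and 207 in clusters named for another class, mostly neutrophil-like (84) and plasmacytoid dendritic-like (73), and 58 cells of the macrophage-like clusters lay outside it. Both genes of the second condition were present in 2832 gated cells, 407 passed through Clec4f alone and 484 through Csf1r alone. At the edge of the gate, 61 cells passed with 2 UMIs over the 3 genes. In these Cd5l averaged 10.3 CP10K and Vsig4 2.40 CP10K, compared with 53.1 and 20.4 in the other gated cells. Just outside it, 467 cells with a C1qa UMI but none of Csf1r or Clec4f averaged 5.04 CP10K of Cd5l and 1.17 CP10K of Vsig4. The doublet caller marked 46 of 11610 cells, too few to have worked, so doublets are not removed here.

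Libraries held 552 to 5609 cells and 2511947 to 11069411 UMIs, and the median gated cell had 2137.5 to 6493.5 UMIs, with the lowest and the highest of these medians in SIRT7-/- mice 1 and 3. Sirt7 itself averaged 0.445, 1.002 and 0.448 CP10K in the gated cells of the wild-type mice, compared with 0.0919, 0.0847 and 0.0390 CP10K in those of the SIRT7-/- mice, with 55, 23 and 4 UMIs still counted there. Markers of other cell types were also counted in the gated cells. The 7 neutrophil markers summed to 0.0193 to 0.359 CP10K in wild-type mice compared with 5.84 to 35.7 CP10K in the SIRT7-/- mice, and no marker of that list was at 0 in every mouse. The 14 hepatocyte markers summed to 59.4 to 162 CP10K in wild-type mice compared with 16.4 to 70.4 CP10K in the SIRT7-/- mice, again with none at 0 throughout. Red blood cell markers reached 0.630 CP10K in wild-type mice compared with 3.58 CP10K in the SIRT7-/- mice at most. Dendritic markers summed to 9.09 to 15.9 CP10K in wild-type mice compared with 19.0 to 22.4 CP10K in the SIRT7-/- mice. The corresponding sums were 3.25 to 3.99 and 5.05 to 9.86 CP10K for plasmacytoid dendritic markers, and 0.514 to 0.999 and 1.10 to 4.96 CP10K for stellate markers. Sums of the remaining marker lists overlapped between the genotypes.

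Between the genotypes, 2 of the 9 genes that the gate did not use passed the test in gated macrophages. Vcam1, the vascular cell adhesion molecule that binds integrins on leukocytes, rose in the SIRT7-/- mice, and Cd207 fell. The other 7, Timd4 among them, did not pass, and Clec4f, which the gate used, is described by its level. Over all 10012 genes tested with limma, 22 passed (0.22%), 13 higher in SIRT7-/- mice (0.13%) and 9 lower (0.0899%). The median log2 fold change of the 10 genes was -0.14 and that of all genes tested was -0.03.

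**Figure D1:**
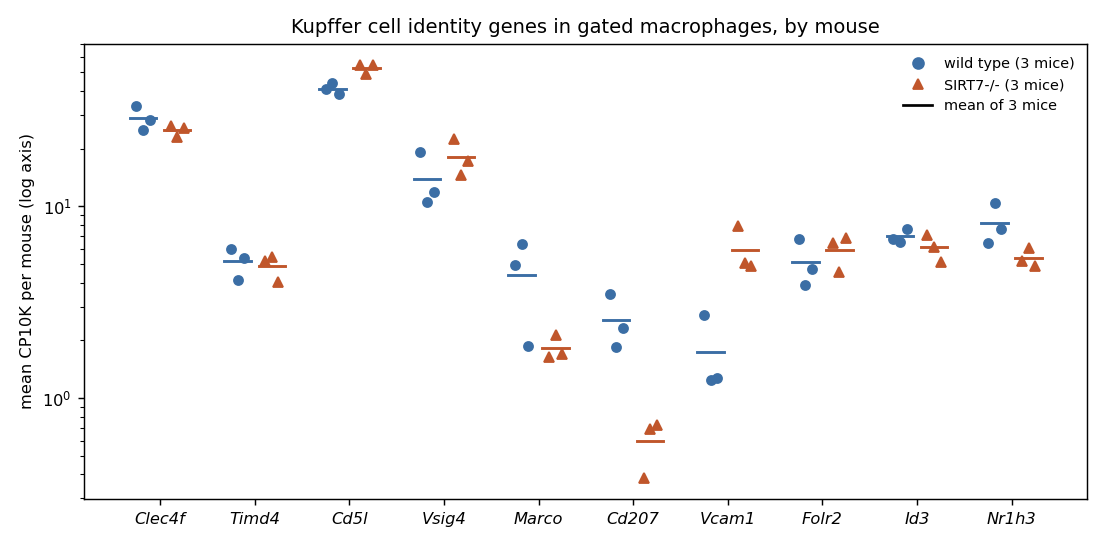
Mean CP10K of each of the 10 genes in gated macrophages (vertical log axis), with circles for the 3 wild-type mice, triangles for the 3 SIRT7-/- mice and bars for the mean of 3 mice. The genotypes do not overlap for Cd5l, Cd207, Vcam1 and Nr1h3, and they overlap for the other 6 genes.

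Vcam1 averaged 2.70, 1.25 and 1.27 CP10K in wild-type mice 1, 2 and 3 compared with 7.91, 5.06 and 4.88 CP10K in SIRT7-/- mice 1, 2 and 3. All SIRT7-/- mice lay above all wild-type mice. The means were 1.74 ± 0.835 and 5.95 ± 1.70 CP10K (SD, n = 3), a ratio of 3.42, and the log2 fold change was 1.81 (standard error 0.30, limma adjusted p = 0.0350). Its UMIs were 85, 20 and 58 in wild-type mice compared with 5031, 1205 and 259 in the SIRT7-/- mice. A Vcam1 UMI was found in 41.8%, 22.7% and 16.7% of gated cells of the wild-type mice and in 69.0%, 61.8% and 70.5% of those of the SIRT7-/- mice. The direction held whichever mouse was left out, but the limma adjusted p was 0.0534 without wild-type mouse 1, 0.301 without wild-type mouse 2, 0.116 without wild-type mouse 3 and 0.157 without SIRT7-/- mouse 3. It was also 0.158 with a gate that did not use Clec4f, 0.353 with voom on summed UMIs and 0.701 in cells thinned to 1000 UMIs, where the log2 fold change was 2.20 with a standard error of 0.79.

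Cd207 averaged 3.49, 1.84 and 2.32 CP10K in wild-type mice 1, 2 and 3 compared with 0.382, 0.690 and 0.721 CP10K in SIRT7-/- mice 1, 2 and 3. Every SIRT7-/- mouse was below every wild-type mouse. The means were 2.55 ± 0.846 and 0.598 ± 0.188 CP10K (SD, n = 3), 4.27 times higher in the wild-type, and the log2 fold change was -2.00 (standard error 0.30, limma adjusted p = 0.0334). It rested on 134, 55 and 178 UMIs in wild-type mice compared with 255, 157 and 48 UMIs in the SIRT7-/- mice. A Cd207 UMI was found in 40.0%, 27.3% and 27.2% of gated wild-type cells and in 6.41%, 13.5% and 10.2% of gated SIRT7-/- cells. The direction again held in every refit, and the limma adjusted p was 0.159, 0.0852 and 0.0814 without wild-type mice 1, 2 and 3 and 0.0800 without SIRT7-/- mouse 3. Within clusters named macrophage-like it was 0.0939 (log2 fold change -1.91), and in thinned cells it was 0.0513 (log2 fold change -1.94). Of the gated cells, 442 lay in an unnamed cluster led by Retnla and Cx3cr1, with Cd207 among its leading genes. That cluster held 18.2%, 22.7% and 19.5% of gated cells in wild-type mice compared with 10.1%, 13.8% and 20.5% in the SIRT7-/- mice. Its part in the Cd207 difference was not tested.

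Neutrophil markers moved with the genotype in the gated cells, as given above. Neutrophil-like cells outside the gate held 0.186 CP10K of Vcam1 and 0.0760 CP10K of Cd207 (means of 2 mice). With gated cells of clusters named for another class left out, Vcam1 and Cd207 had log2 fold changes of 1.80 and -1.99 (limma adjusted p = 0.0210 for each). With hepatocyte genes left out of the scaling the values were 1.80 and -2.01 (limma adjusted p = 0.0334 and 0.0310). The part of neutrophil and hepatocyte RNA in the 2 differences was not tested.

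**Figure D2:**
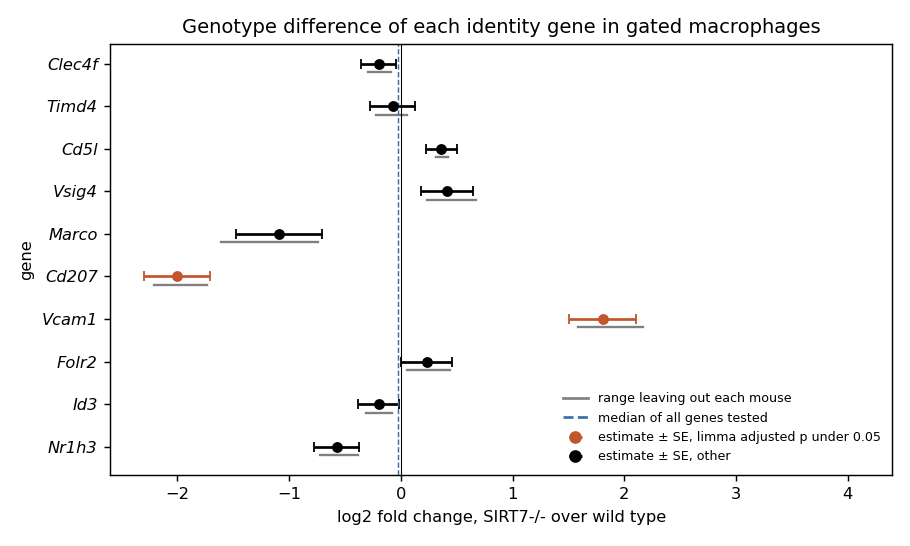
Log2 fold change of each of the 10 genes in gated macrophages, SIRT7-/- over wild type, with points and bars for the estimate ± its standard error and grey lines for the range when each mouse is left out in turn. Vcam1 (1.81) and Cd207 (-2.00), drawn in colour, passed the test, and the estimates of the other 8 genes lie between -1.09 and 0.41.

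Among the uptake receptors, Clec4f averaged 33.3, 25.1 and 28.1 CP10K in wild-type mice compared with 26.2, 23.0 and 25.8 CP10K in the SIRT7-/- mice, and the genotypes overlapped. With the gate that did not use it, its log2 fold change was -0.25 (standard error 0.17, limma adjusted p = 0.683). Timd4, which encodes the phosphatidylserine receptor TIM-4 and marks the Kupffer cells of embryonic origin, averaged 6.00, 4.14 and 5.38 CP10K in wild-type mice compared with 5.16, 5.47 and 4.05 CP10K in the SIRT7-/- mice. Its log2 fold change was -0.07 (standard error 0.20, limma adjusted p = 0.930), and the sign turned when wild-type mouse 1 (0.04) or SIRT7-/- mouse 3 (0.06) was left out and when mice were centred on their median gene (0.06). These standard errors leave room for small differences in either direction.

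Vsig4, the complement receptor CRIg that takes up opsonized bacteria, averaged 19.1, 10.5 and 11.9 CP10K in wild-type mice compared with 22.5, 14.5 and 17.3 CP10K in the SIRT7-/- mice, which overlapped (log2 fold change 0.41, standard error 0.23, limma adjusted p = 0.600). Leaving out each mouse moved this from 0.24 without wild-type mouse 2 or SIRT7-/- mouse 1 to 0.67 without wild-type mouse 1. Marco, a scavenger receptor, averaged 4.95, 6.37 and 1.88 CP10K in wild-type mice compared with 1.63, 2.14 and 1.69 CP10K in the SIRT7-/- mice. Wild-type mouse 3 stood within the SIRT7-/- range. The log2 fold change of Marco was -1.09 (standard error 0.39, limma adjusted p = 0.375), and without wild-type mouse 3 it was -1.61 (limma adjusted p = 0.0443). It was -0.74 without wild-type mouse 2 (limma adjusted p = 0.562) and -0.45 with voom on summed UMIs (adjusted p = 0.800). Folr2, the folate receptor β of tissue macrophages, averaged 6.72, 3.90 and 4.73 CP10K in wild-type mice compared with 6.45, 4.55 and 6.85 CP10K in the SIRT7-/- mice, a log2 fold change of 0.23 (limma adjusted p = 0.779) that was 0.05 without wild-type mouse 2 and 0.44 without wild-type mouse 1.

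Cd5l, the secreted protein AIM, which is an LXR target that protects macrophages from apoptosis, averaged 40.8, 43.9 and 38.6 CP10K in wild-type mice compared with 54.8, 48.8 and 54.9 CP10K in the SIRT7-/- mice. The genotypes did not overlap, but the difference did not pass the test (log2 fold change 0.36, standard error 0.14, limma adjusted p = 0.393). Of all genes tested, 6.8% lay wholly above and 9.62% wholly below the wild-type range in the SIRT7-/- mice. Of the 10 genes, 2 lay above (Cd5l and Vcam1) and 2 below (Cd207 and Nr1h3).

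The 2 transcriptional regulators did not pass the test either. Nr1h3, which encodes the sterol receptor LXRα, averaged 6.44, 10.4 and 7.58 CP10K in wild-type mice compared with 5.21, 6.04 and 4.87 CP10K in the SIRT7-/- mice. Each SIRT7-/- mouse was lower than each wild-type mouse, and the log2 fold change was -0.57 (standard error 0.20, limma adjusted p = 0.349). Id3, an inhibitor of basic helix-loop-helix factors that Kupffer cells need, averaged 6.78, 6.50 and 7.66 CP10K in wild-type mice compared with 7.11, 6.12 and 5.11 CP10K in the SIRT7-/- mice, which overlapped (log2 fold change -0.20, limma adjusted p = 0.754).

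Shares of cells with a UMI depend on depth, so gated cells were also thinned to 1000 UMIs, which left out 4 to 19 cells per wild-type mouse and 180, 17 and 4 in SIRT7-/- mice 1, 2 and 3. Vcam1 was then found in 26.0%, 5.00% and 6.61% of wild-type cells and 48.2%, 33.5% and 26.2% of SIRT7-/- cells. The genotypes were separated by 0.190 percentage points, between wild-type mouse 1 and SIRT7-/- mouse 3. Cd207 was found in 22.0%, 12.5% and 15.9% of wild-type cells and 2.99%, 5.80% and 4.76% of SIRT7-/- cells. Nr1h3 was found in 44.0%, 47.5% and 46.7% of wild-type cells and 37.4%, 37.8% and 35.7% of SIRT7-/- cells. For these 3 genes the exact two-sided permutation test gave its smallest possible value (p = 0.1), and the other 7 genes overlapped. With the gate that did not use Clec4f, the thinned Vcam1 shares overlapped (exact permutation test, p = 0.2). Without thinning, the Nr1h3 shares overlapped and the Folr2 shares did not (exact permutation test, p = 0.1).

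Free RNA sets a floor under such shares. In T and NK-like cells outside the gate, which should lack Kupffer cell genes, Vcam1 had a UMI in 0.923% and Cd207 in 0.154% of 1951 cells, at a median of 1565 UMIs per cell compared with 2320 in the gate. The corresponding shares there were 1.90% for Clec4f, 0.974% for Timd4, 6.56% for Cd5l, 2.92% for Vsig4, 0.205% for Marco and 0.923% for Folr2. The unthinned shares of Vcam1 and Cd207 in gated cells of either genotype were all above these. The shares in T and NK-like cells pool the mice of both genotypes. Mean Vcam1 in T and NK-like cells was higher in each SIRT7-/- mouse than in each wild-type mouse, at 0.154 CP10K at most (exact two-sided permutation test, p = 0.1).

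A thinned gated cell held UMIs of 3.88 to 4.80 of the 10 genes on average in the 6 mice, or 3.23 to 3.98 of the 9 genes other than Clec4f, which the gate used, and 1.33% to 7.14% of cells held none of them. Clec4f and Timd4 were found together in 40.0%, 30% and 33.0% of wild-type cells and 35.3%, 35.3% and 33.3% of SIRT7-/- cells, and neither in 16.0%, 17.5% and 21.6% compared with 14.4%, 21.9% and 33.3%. The pair was found together 1.01 to 1.47 times as often as the product of its 2 shares in the 6 mice, and 1.02 to 1.47 times with the gate that did not use Clec4f, an alternative chosen after seeing the data. Vsig4 and Folr2 had the highest median ratio of the 45 pairs, 1.44, and it was above 1 in 6 of 6 mice.

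Cd207 and Vcam1 had the lowest median ratio, 0.21. In the wild-type mice, 0 of 50, 0 of 40 and 1 of 227 thinned cells held both, and in the SIRT7-/- mice 42 of 2472, 7 of 621 and 0 of 84. The ratio was 0, 0 and 0.420 in wild-type mice compared with 1.18, 0.581 and 0 in the SIRT7-/- mice. Only 11, 5, 36, 74, 36 and 4 cells held a Cd207 UMI in the 6 mice, and the products give 2.86, 0.250 and 2.38 cells with both in wild-type mice compared with 35.7, 12.1 and 1.05 in the SIRT7-/- mice. With 0 of 50 and 0 of 40 cells, shares of up to 6.00% and 7.50% are allowed.

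**Figure D3:**
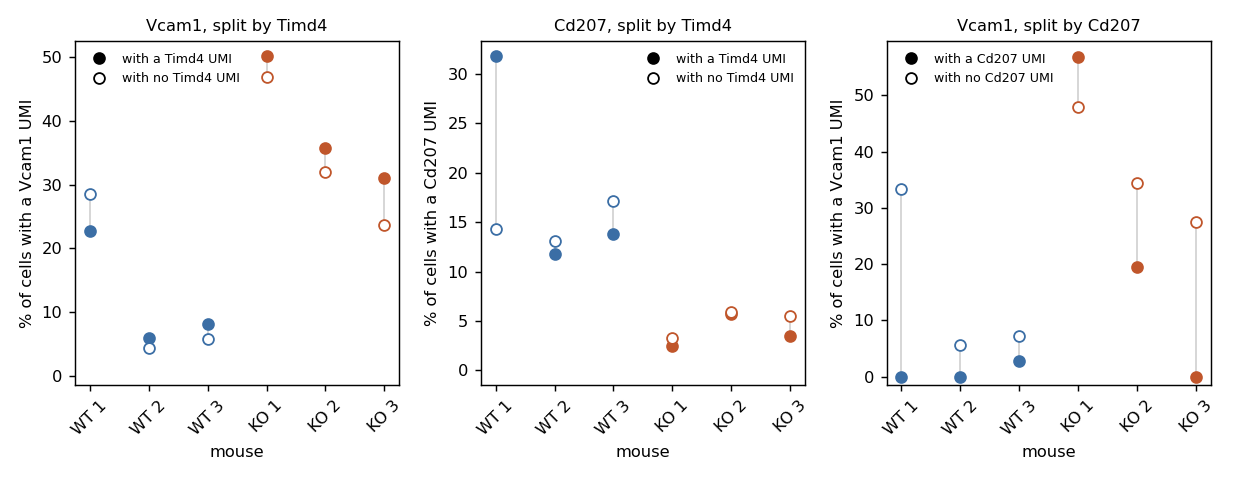
Percentage of thinned gated macrophages with a UMI of Vcam1 or Cd207 in each mouse (blue wild type, orange SIRT7-/-), with filled circles for cells that also held a UMI of the gene named in the panel title and open circles for cells that did not. Vcam1 is at 31.0% to 50.2% in Timd4-positive cells of SIRT7-/- mice and 5.88% to 22.7% in those of wild-type mice.

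Vcam1 and Cd207 were also averaged apart in cells with and without a Timd4 UMI. Among gated cells with a Timd4 UMI, Vcam1 averaged 3.49, 1.45 and 1.08 CP10K in wild-type mice compared with 8.10, 5.78 and 5.41 CP10K in the SIRT7-/- mice. Among those with none, it averaged 0.797, 0.957 and 1.54 CP10K in wild-type mice compared with 7.60, 3.51 and 3.97 CP10K in the SIRT7-/- mice, with 16, 18 and 102 wild-type cells behind the first 3 values. The genotypes did not overlap in either set (exact two-sided permutation tests, p = 0.1 each, the smallest possible). In limma fits of the 2 sets, the log2 fold changes were 1.81 (adjusted p = 0.110) and 2.11 (adjusted p = 0.0767).

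For Cd207, cells with a Timd4 UMI averaged 4.86, 1.40 and 2.44 CP10K in wild-type mice compared with 0.419, 0.682 and 1.06 CP10K in the SIRT7-/- mice, with no overlap. Cells with no Timd4 UMI averaged 0.145, 2.49 and 2.14 CP10K in wild-type mice compared with 0.320, 0.708 and 0.131 CP10K in the SIRT7-/- mice. There wild-type mouse 1, with 16 such cells, lay among the SIRT7-/- mice. Whether the genotype difference depends on Timd4 was not tested.

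Outside the gate, Timd4, Marco and Folr2 stayed at or under 0.139 CP10K in each class with at least 20 cells in each of 4 or more mice. Id3 was highest in endothelial-like cells, at 11.2 ± 0.823 CP10K (SD, n = 5), compared with 6.54 ± 0.879 CP10K (SD, n = 6) in gated macrophages, and the ranges of 9.95 to 12.1 and 5.11 to 7.66 CP10K did not overlap. Hepatocyte-like cells held 1.58 ± 0.285 CP10K of Nr1h3 (SD, n = 6), next in order among the named classes after the 6.76 ± 2.04 CP10K of gated macrophages. Vcam1 averaged 1.15 ± 0.346 CP10K in endothelial-like cells (SD, n = 5), where it is a known adhesion molecule, with 1.01, 1.24 and 1.20 CP10K in wild-type mice compared with 0.664 and 1.61 CP10K in SIRT7-/- mice 1 and 2. The endothelial values overlapped between the genotypes (log2 fold change -0.14, standard error 0.41, limma adjusted p = 0.964). Whether the Vcam1 difference of macrophages differs from that of endothelial-like cells was not tested.

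Proportions of the genes to Clec4f were alike for some genes and classes and unlike for others. Cells with UMIs of both C1qa and Clec4f were placed in the gate, which lowers Clec4f outside it. The proportions outside the gate are therefore partly set by the gate and are descriptions. Per 100 UMIs of Clec4f, gated macrophages held 205 of Cd5l, 77.6 of Vsig4 and 21.2 of Timd4, and hepatocyte-like cells outside the gate held 174, 85.2 and 20.4. In T and NK-like cells outside the gate these 3 genes stood at 364, 146 and 51.3, on 39 UMIs of Clec4f. Id3 and Nr1h3 stood at 27.2 and 21.4 per 100 UMIs of Clec4f in the gate and at 1744 and 915 in hepatocyte-like cells, where Clec4f had 54 UMIs in all. Vcam1 stood at 25.8 in the gate and at 536 in endothelial-like cells, on 14 UMIs of Clec4f.

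Cd207 was also found in another unnamed cluster, of cells outside the gate, led by F13a1, Prss34, Mcpt8 and Cd209a. It averaged 0.160, 0.371 and 0.507 CP10K there in the wild-type mice, on 5, 16 and 31 UMIs, and 0.0886, 0.0464 and 0 CP10K in the SIRT7-/- mice, on 9, 5 and 0 UMIs. Each SIRT7-/- mouse was below each wild-type mouse (exact two-sided permutation test, p = 0.1, the smallest possible).

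In the 5 classes outside the gate that could be fitted, none of 30 limma tests of 7 of the genes passed, and Marco, Cd207 and Folr2 were under the filter on low values in all 5. An unadjusted p under 0.05 was seen in 7 of the 30, of which 4 were for Cd5l, compared with 3.66% to 14.7% of all genes tested in the 5 classes. The rest were Vsig4 in plasma B-like cells (log2 fold change 1.51, limma adjusted p = 0.718) and 2 genes in T and NK-like cells. Those were Vcam1 (1.17, limma adjusted p = 0.708) and Nr1h3 (-1.60, limma adjusted p = 0.671). The share of all genes that passed in those fits was 0.0215% in B-like, 0.0683% in hepatocyte-like, 0.104% in plasma B-like, 0.13% in T and NK-like and 0.31% in endothelial-like cells. Cd5l was estimated higher in the SIRT7-/- mice in all 5, as in hepatocyte-like cells, where it averaged 0.0121, 0.0713 and 0.130 CP10K in wild-type mice compared with 1.25, 0.652 and 0.145 CP10K in the SIRT7-/- mice (log2 fold change 2.34, standard error 0.69, limma adjusted p = 0.169). Gated macrophages made up a larger share of the library in SIRT7-/- mice 1 and 2, as given above, and the part of free RNA in these values was not tested.

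**Figure D4:**
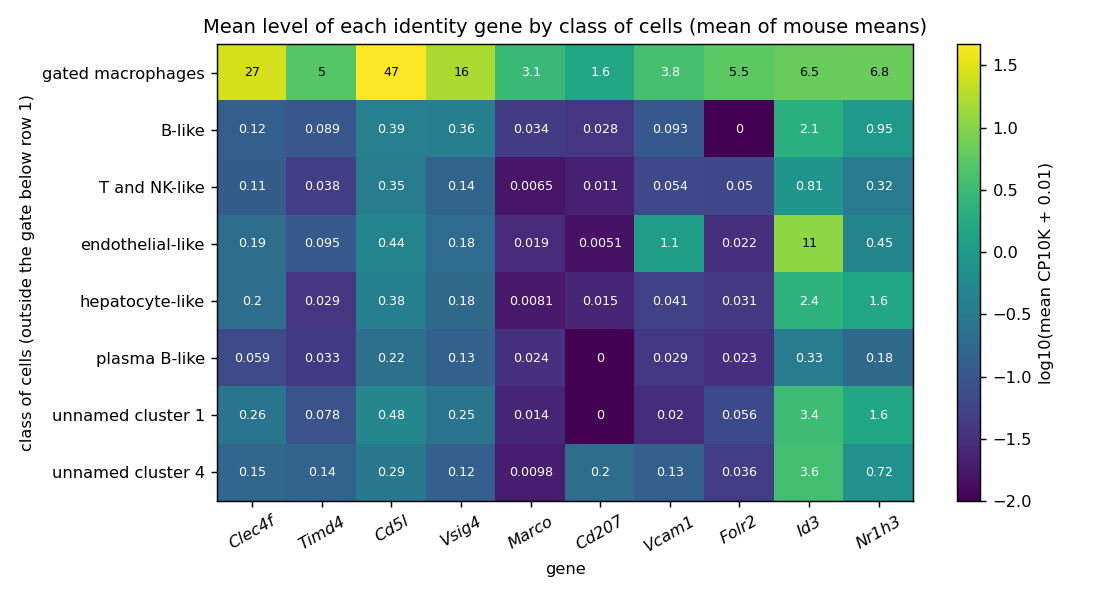
Mean CP10K of each gene (columns) by class of cells (rows), as the mean over mice with at least 20 such cells and coloured by log10(mean CP10K + 0.01). Gated macrophages are at the top and the rows under them hold cells outside the gate. Id3 is higher in endothelial-like cells than in gated macrophages, and the other 9 genes are highest in gated macrophages among the classes drawn.

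By pattern over 51 means of 12 classes of cells and their mice, the genes most like Clec4f were Spic (Pearson r = 0.936), a factor of iron-recycling macrophages, Fcna (0.931) and C6 (0.915). Those most like Timd4 were C6 (0.907), Pcolce2 (0.904) and Slc7a8 (0.901). Likeness was lower for the regulators, where Camk1 (0.859), Fcgrt (0.813) and Ctnnd1 (0.798) came first for Id3, and Dnase2a (0.786), Tmem141 (0.755) and Camk1d (0.746) for Nr1h3. The points share libraries and free RNA, and the correlations are descriptions.

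Further genes of Kupffer cell identity and of the signals behind it were taken from lists, and in each list the 2 highest and 2 lowest log2 fold changes of genes that averaged 0.5 CP10K or more are given. Of 19 other Kupffer cell genes tested, none passed in limma, 9 had a positive log2 fold change and the median was -0.02, beside 47.4% positive among all genes tested. The lowest 2 were Ccl24, an eosinophil chemokine, at 3.26 ± 0.441 CP10K in wild-type mice compared with 1.67 ± 0.374 CP10K in the SIRT7-/- mice (SD, n = 3, log2 fold change -0.96, limma adjusted p = 0.139), and Cdh5, the endothelial cadherin that Kupffer cells also express, at 5.39 and 3.62 CP10K (limma adjusted p = 0.312). Spic (0.64) and Cd163, the haemoglobin scavenger receptor (0.54), had the highest log2 fold changes (limma adjusted p = 0.377 and 0.706).

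Of 12 genes for LXR partners and targets, 5 had a positive log2 fold change, the median was -0.16 and none passed. Rxra, the partner of LXRα, averaged 2.31 CP10K in wild-type mice compared with 1.504 CP10K in the SIRT7-/- mice without overlap (log2 fold change -0.63, limma adjusted p = 0.341), and Arl4c stood at -0.47 (limma adjusted p = 0.599). The cholesterol exporter Abcg1 (0.42) and Apoe (0.39), the lipid carrier, were highest (limma adjusted p = 0.477 and 0.809), with Apoe at 145 CP10K in SIRT7-/- mouse 1 and 42.4 to 70.6 CP10K in the other 5 mice.

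Among 18 genes of BMP, TGF-beta and Notch signalling, 8 had a positive log2 fold change, the median was -0.03 and none passed. The receptors Acvrl1 (0.60) and Tgfbr2 (0.55) were highest, both with SIRT7-/- mice above wild-type mice (limma adjusted p = 0.429 and 0.441). Among genes that averaged 0.5 CP10K or more, Notch2 (-0.22) and Smad1 (-0.20) were lowest (limma adjusted p = 0.876 and 0.837). Below that level, Smad6 (-1.12), Eng (-0.30) and Notch1 (-0.24) were lower (limma adjusted p = 0.327, 0.859 and 0.809). The genotypes did not overlap for Smad6 and Notch1, with the SIRT7-/- mice below the wild-type mice.

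Genes of monocytes and of lipid-associated macrophages, the state described around fat-laden hepatocytes, were set beside the identity genes. None of 12 monocyte genes passed, and their median log2 fold change was 0.63. Ms4a4c (1.18) and Vim (0.67) were highest (limma adjusted p = 0.477 each), and Fn1 (-1.07) and Cx3cr1 (-0.12) were lowest (limma adjusted p = 0.259 and 0.920).

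Of the 12 lipid-associated macrophage genes, 12 had a positive log2 fold change, the median was 1.31, and 2 passed, both higher, beside 47.4% positive and 0.13% called higher among all genes tested. Ctsd, the lysosomal protease cathepsin D, averaged 10.8, 8.32 and 9.30 CP10K in wild-type mice compared with 28.4, 23.3 and 20.6 CP10K in the SIRT7-/- mice (log2 fold change 1.33, limma adjusted p = 0.0165). Gpnmb, a glycoprotein of lysosome-rich macrophages, had 0 UMIs in gated cells of all 3 wild-type mice and 0.358 ± 0.173 CP10K in the SIRT7-/- mice (SD, n = 3, limma adjusted p = 0.0334). A floor of 3 UMIs, pooled over the gated cells of all 3 wild-type mice, stands at 0.0270 CP10K. The mice differ in depth, so no fold bound is drawn from it. Mmp12 (3.84) and Cd63 (2.67) had large estimates that did not pass (limma adjusted p = 0.0735 and 0.0560), and Plin2 (0.04) and Lpl (0.51) were lowest (limma adjusted p = 0.969 and 0.409).

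The 14 genes known to be induced by tissue dissociation had a median log2 fold change of -0.48, with 2 positive and none past the test, and summed to 23.0 to 29.8 CP10K in wild-type mice compared with 10.9 to 20.003 CP10K in the SIRT7-/- mice. Among those that averaged 0.5 CP10K or more, Dusp1 (-1.23) and Fos (-1.06) were lowest (limma adjusted p = 0.474 and 0.341). Jun (-0.30) and Egr1 (-0.03) were highest among them (limma adjusted p = 0.766 and 0.991). The 2 positive genes, Atf3 (0.48) and Ier3 (0.40), averaged less. The part of dissociation in the differences of Vcam1 and Cd207 was not tested.

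**Figure D5:**
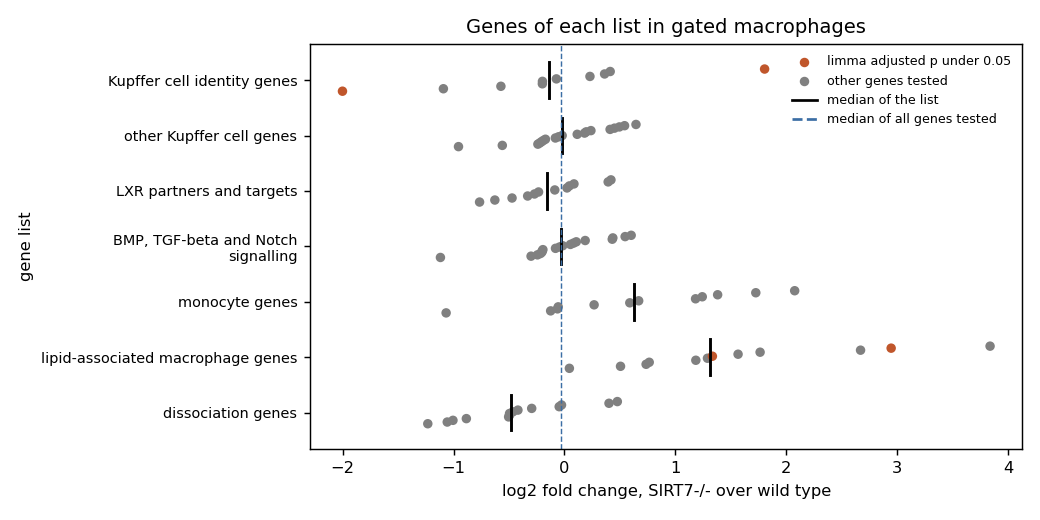
Log2 fold change, SIRT7-/- over wild type, of every gene tested in each list in gated macrophages, with a bar at the list's median and a dashed line at the median of all genes tested (-0.03). The 12 lipid-associated macrophage genes all lie above 0 around a median of 1.31, and the other Kupffer cell genes lie around a median of -0.02.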

How the data were processed

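Each of 6 livers, 3 per genotype, gave 1 single-cell library. Per the labels, the submitters' processing notes name Cell Ranger 6.0.0 and mm10. The deposited table held natural log values, ln(CP10K + 1), for 11610 cells, each with at least 500 genes, and 16623 genes. All gene columns share that unit and were used. Whole UMIs were recovered from each cell's smallest steps (no value outside a tolerance of 0.02), which gave the depths. The ending of each barcode gave the mouse, and 26 cells shared a barcode sequence with a cell of another mouse (none gated in 2 mice).

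Clusters came from scanpy 1.11.5 (Leiden resolution 1) and were called X-like from marker lists. CP10K was averaged over the cells of each mouse, genes with a mean of at least 0.05 were kept, and log2(mean + 0.05) was tested with limma 3.58.1 (trend and robust, Benjamini-Hochberg adjustment over all genes, threshold 0.05), so fold changes of low genes are understated. The mouse was the replicate (SIRT7-/- minus wild type). On simulated data for the gated macrophages, 42% of 200 genes changed 4-fold were recovered, with 3 other genes called among 9874. The spread between mice was set by hand there and not taken from the data, so recovery in the real data may differ. Intervals and floors cover counting error only. The genes, lists and tests were chosen with earlier results of these data known. Named genes were the 10, list genes past the threshold, the 2 highest and 2 lowest of each list, and the 3 closest in pattern to Clec4f, Timd4, Id3 and Nr1h3. Lists were other Kupffer cell genes, LXR partners and targets, BMP, TGF-beta and Notch signalling, niche ligands, monocyte, lipid-associated macrophage, dissociation and nuclear RNA genes, with cell type markers. Same-numbered mice were not paired by the labels, and their deviations correlated at 0.0693, -0.031 and -0.138. Alternatives were another pseudocount, filter, gate, scaling and test, thinning, a replicate block and leaving out each mouse, and 7 choices of cells or genes added after the data were seen.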

Additional observations from a re-analysis of the deposited data

How the results depend on the processing

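Of 22 genes past the threshold in gated macrophages, 1 remained in number with no filter on low values, 7 with a filter at 0.5 CP10K, 13 within macrophage-like clusters, 13 with voom on summed UMIs and 4 after thinning. In settings chosen after seeing the data there were 6 among cells with a Timd4 UMI, 2 among cells with none, 14 among cells with a Clec4f UMI and 6 without the proliferating cluster. Leaving out each mouse gave 1 to 83 genes, with 1 without wild-type mouse 1 or wild-type mouse 2, 83 without SIRT7-/- mouse 1 and 2 without SIRT7-/- mouse 3. With the replicate block there were 141, among them Marco (limma adjusted p = 0.0372), although the labels do not pair same-numbered mice. Counts stayed within 1.5 times of 22 under the other settings run. The causes were not tested. The direction of Vcam1 and Cd207 held in all 22 alternatives, and the call of each was lost in 12 and 11 of them, to adjusted p of at most 0.701 and 0.764. Vcam1 was at an adjusted p of 0.368 with no filter, as was Cd207, and Vcam1 at 0.0559 with the filter at 0.5 CP10K. Timd4 turned sign when mice were centred on the median (0.056) and ran from -0.22 to 0.06 when each mouse was left out. Without thinning, the differences in share turned for Timd4 (1.95 percentage points), Cd5l (2.89) and Id3 (4.03), and with the gate without Clec4f for Clec4f (1.25) and Cd5l (0.212). Wild-type mice 1 and 2 gave 55 and 44 gated cells, which limits what could be seen of rarely detected genes.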

Other observations

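Of 11 listed niche ligands, 2 passed the filter in gated macrophages and neither passed the test. Tgfb1 averaged 2.08 ± 0.293 CP10K in the wild-type and 2.20 ± 0.113 CP10K in the SIRT7-/- mice (SD, n = 3, limma adjusted p = 0.916). The 3 nuclear RNA genes tested had a median log2 fold change of 0.10, and the list summed to 95.1 to 117 CP10K in the wild-type and 86.5 to 148 CP10K in the SIRT7-/- mice, which overlapped.

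The genotype difference in gated macrophages was also taken relative to that in hepatocyte-like cells of the same mice. Nr1h3 (-0.72), Vsig4 (-0.87), Cd5l (-1.98) and Id3 (-0.73) had log2 differences with limma adjusted p between 0.481 and 0.724. Clec4f stood at -1.13, which is a description because the gate used it. The estimates are negative also for Vsig4 and Cd5l, which were estimated higher in the SIRT7-/- mice in both classes. Hepatocyte-like cells outside the gate held only 54 UMIs of Clec4f, 94 of Cd5l and 46 of Vsig4 over 1374 cells. Estimates for these genes rest on few UMIs there, and the part of free RNA in them was not tested.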
